A study of Mus musculus with 4 samples.

Results

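In the mouse glioblastoma line GL261, 1031 regions carried a called H3K27me3 peak at nearly the same place in irradiated and in control cells. A shared pair was defined as 1 irradiated and 1 control peak on chromosomes 1 to 19 whose overlap covered at least 50% of the longer of the 2 peaks. The pairs were thus chosen by the positions of the peaks in both lists, which follow the measured signal, and each peak fell in at most 1 pair. The pairs took 1031 of 15746 irradiated peaks (6.55%, 95% exact interval 6.17 to 6.95) and 1031 of 9529 control peaks (10.8%, 10.2 to 11.5). A further 965 pairs of peaks overlapped by at least 1 bp but by too little for the rule, so 51.7% of the 1996 overlapping pairs met it. No overlapping partner was found for 13802 irradiated and 7605 control peaks.

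The study asked where H3K27me3 lay on the chromosomes after radiation treatment. It held 4 libraries, 1 of H3K27me3 and 1 of input DNA from irradiated GL261 cells and likewise from control GL261 cells; only the peak lists of the 2 H3K27me3 libraries were used, and the inputs as such were not analysed here. GL261 is a line grown in culture from a mouse brain tumour, and the sources used here do not state the dose of radiation, the time of harvest or how the control cells were handled. With 1 library for each condition no value could be set against replicate error, so no test between conditions was made, and intervals cover counting error only.

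Trimethylation of lysine 27 of histone H3 is laid down by Polycomb repressive complex 2, whose catalytic subunit is Ezh2 or Ezh1, and is read by canonical Polycomb repressive complex 1 through its Cbx subunits. The mark lies on genes that a cell keeps silent, and in most mammalian cells its densest domains cover CpG-rich starts of developmental regulators such as the Hox genes. It can also spread as a low, broad signal over inactive parts of the genome, where narrow peak calls catch only its highest points.

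The sequences bear on how unlike CpG-rich Polycomb targets the shared regions at gene starts were. Of 31396 RefSeq promoter windows on the autosomes (250 bases before to 50 after a gene start, build GRCm38.p6), 18 were met by the overlap of a shared pair, and 17 pairs met them. The 7 windows of the strongest pairs (the lowest values of the larger q of the 2 lists) are given 5′ to 3′ on the strand of the gene, with the bases inside the overlap of both peaks in capitals; q, the p-value adjusted over the genome by the authors' peak caller, was at most 0.05 in both lists for all of them but Gm21083.
Trpm8, chr1:88306485-88306784, plus strand: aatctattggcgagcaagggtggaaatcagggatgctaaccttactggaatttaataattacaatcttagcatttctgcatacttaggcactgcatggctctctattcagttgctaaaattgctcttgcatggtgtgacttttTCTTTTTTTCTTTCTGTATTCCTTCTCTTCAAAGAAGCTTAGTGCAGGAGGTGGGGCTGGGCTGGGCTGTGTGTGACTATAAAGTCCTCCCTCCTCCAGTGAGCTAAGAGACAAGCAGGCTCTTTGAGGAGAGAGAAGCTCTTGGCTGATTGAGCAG
Speer4c, chr5:15714222-15714521, minus strand: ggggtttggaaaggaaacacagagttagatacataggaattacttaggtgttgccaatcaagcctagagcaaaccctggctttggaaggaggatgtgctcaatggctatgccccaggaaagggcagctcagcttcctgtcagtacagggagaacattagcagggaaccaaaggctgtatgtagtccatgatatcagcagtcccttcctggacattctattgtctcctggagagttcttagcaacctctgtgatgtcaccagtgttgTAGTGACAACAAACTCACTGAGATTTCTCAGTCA
Gm21190, chr5:15529173-15529472, minus strand: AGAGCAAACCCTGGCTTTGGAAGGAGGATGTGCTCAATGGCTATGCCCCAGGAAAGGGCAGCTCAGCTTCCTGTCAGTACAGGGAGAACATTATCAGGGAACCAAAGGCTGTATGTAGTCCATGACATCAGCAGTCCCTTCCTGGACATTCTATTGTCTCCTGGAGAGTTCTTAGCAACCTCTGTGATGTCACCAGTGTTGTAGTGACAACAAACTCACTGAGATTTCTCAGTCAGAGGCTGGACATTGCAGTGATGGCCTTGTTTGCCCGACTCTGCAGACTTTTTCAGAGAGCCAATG
Gm9758, chr5:14914840-14915139, minus strand: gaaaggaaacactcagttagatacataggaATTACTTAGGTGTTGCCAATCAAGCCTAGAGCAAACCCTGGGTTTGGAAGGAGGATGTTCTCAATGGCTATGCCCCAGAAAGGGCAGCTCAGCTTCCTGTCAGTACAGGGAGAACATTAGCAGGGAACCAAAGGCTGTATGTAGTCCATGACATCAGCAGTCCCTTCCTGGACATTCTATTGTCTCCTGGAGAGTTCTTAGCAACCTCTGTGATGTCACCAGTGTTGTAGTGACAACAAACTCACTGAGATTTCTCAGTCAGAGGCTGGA
Gm21083, chr5:15577043-15577342, plus strand: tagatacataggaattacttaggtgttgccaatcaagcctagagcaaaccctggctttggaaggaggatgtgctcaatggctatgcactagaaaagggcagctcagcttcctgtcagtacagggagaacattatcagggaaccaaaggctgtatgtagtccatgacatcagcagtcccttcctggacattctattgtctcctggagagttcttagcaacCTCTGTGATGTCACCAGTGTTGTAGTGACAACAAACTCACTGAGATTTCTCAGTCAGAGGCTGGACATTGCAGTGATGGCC
Gm5373, chr8:71858068-71858367, minus strand: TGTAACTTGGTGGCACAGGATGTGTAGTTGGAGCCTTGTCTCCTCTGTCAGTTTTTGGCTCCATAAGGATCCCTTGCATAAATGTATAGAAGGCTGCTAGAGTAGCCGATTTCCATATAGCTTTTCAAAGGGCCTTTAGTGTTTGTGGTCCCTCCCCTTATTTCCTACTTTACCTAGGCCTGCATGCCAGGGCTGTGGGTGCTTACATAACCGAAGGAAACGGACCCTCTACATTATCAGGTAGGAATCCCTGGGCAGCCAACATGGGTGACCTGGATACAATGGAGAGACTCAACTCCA
Gm31160, chr5:137179115-137179414, minus strand: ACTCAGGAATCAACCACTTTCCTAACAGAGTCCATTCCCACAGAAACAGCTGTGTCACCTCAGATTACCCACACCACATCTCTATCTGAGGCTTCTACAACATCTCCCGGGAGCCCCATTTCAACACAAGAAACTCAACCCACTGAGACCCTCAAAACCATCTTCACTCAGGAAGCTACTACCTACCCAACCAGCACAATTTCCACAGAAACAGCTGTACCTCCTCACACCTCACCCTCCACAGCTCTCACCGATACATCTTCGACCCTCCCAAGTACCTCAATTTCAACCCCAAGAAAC

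The Trpm8 window, at the start of the gene for the cold- and menthol-gated cation channel of sensory neurons, was met over 157 of its bases, and the irradiated and control summits lay 8 and 34 bp downstream of the start. The Speer4c window belongs to a rodent gene family expressed in the testis, and its pair covered only 34 bases of it, since both summits lay further into the gene, 192 and 215 bp downstream of the start. The Gm21190 window lay wholly inside its pair, with the summits 14 and 29 bp downstream of the start. Of the 17 other windows, 6 were 77.7% to 98.0% identical to that of Speer4c in a global alignment, and 11 were 49.7% to 55.7% identical. Reads of such near-identical copies could have been placed on any of them, so the values of the Speer4c group are uncertain as to which copy they came from.

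The windows of the pairs were poor in CpG. The median window held 1 CpG (range 0 to 5), against a median of 7 over all windows, where the lower quartile was 3. None of the 18 windows held 10 or more CpG, whereas 44.0% of all windows did. The median GC content was 47% (range 41% to 53%) in the windows of the pairs and 53% over all windows. The 18 windows were not all separate sequences. Among them 6 were 77.7% to 98.0% identical to that of Speer4c, and more than 1 belonged to Gm35081. No such values are given for the windows met by all irradiated or all control peaks. The contrast therefore cannot be read as a trait of shared regions. The motif GAGAGAGA was found on either strand in 1 window, 5.56% against 3.96% of all windows, and CACACACA also in 1, 5.56% against 4.14%; both matches were in the Trpm8 window and did not overlap each other.

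The peaks of the pairs were about as wide in irradiated as in control cells, and wider than the peaks without a partner. Their median width was 434 bp in the irradiated list (quartiles 328.5 and 575, range 270 to 2409) and 429 bp in the control list (quartiles 341 and 562, range 284 to 2316). Peaks without any overlap had a median of 355 bp in the irradiated and 343 bp in the control list. The narrowest width that each list contains was held by 8.63% of irradiated and 9.02% of control peaks in pairs, against 17.7% of irradiated and 26.6% of control peaks without overlap. Widths of 800 bp or more made up 9.41% of irradiated and 8.73% of control peaks in pairs, against 3.75% and 1.49% of irradiated and control peaks without overlap. A wider peak has more room to meet another, so these values describe what the rule selects.

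Within a pair the irradiated peak was wider in 491 pairs (47.6%), the control peak in 537 (52.1%), and the widths were equal in 3. The ratio of irradiated to control width had a median of 0.987 (quartiles 0.792 and 1.27), and the rule itself keeps it between 0.5 and 2. Across the 1031 pairs the Spearman correlation of the widths was 0.561, a description, since the rule limits how far they can part. Both peaks reached 800 bp in 55 pairs. The overlap had a median of 332 bp (range 142 to 1721) and covered a median of 69.3% of the longer peak. It covered at least 70% in 500 pairs (48.5%) and at least 90% in 75 (7.27%), and no pair had the same start and end in both lists. Together the overlaps covered 401432 bp.

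Stronger and wider peaks had a shared partner more often in both lists. Among irradiated peaks with a q above 0.05, 5.27% were in pairs, and among control peaks 9.37%. At a q of 1e-5 or lower the share was 59.4% in the irradiated list (60 of 101 peaks) and 72.1% in the control list (49 of 68). By width, the share was 3.87% of irradiated and 4.85% of control peaks under 300 bp, and 12% and 30.6% of irradiated and control peaks of 800 bp or more. By the number of ChIP reads at the summit, recovered from the deposited fold and p, it was 4.90% of irradiated and 6.09% of control peaks under 10 reads, and 32.1% and 62.5% of irradiated and control peaks with 20 or more.

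**Figure D1:**
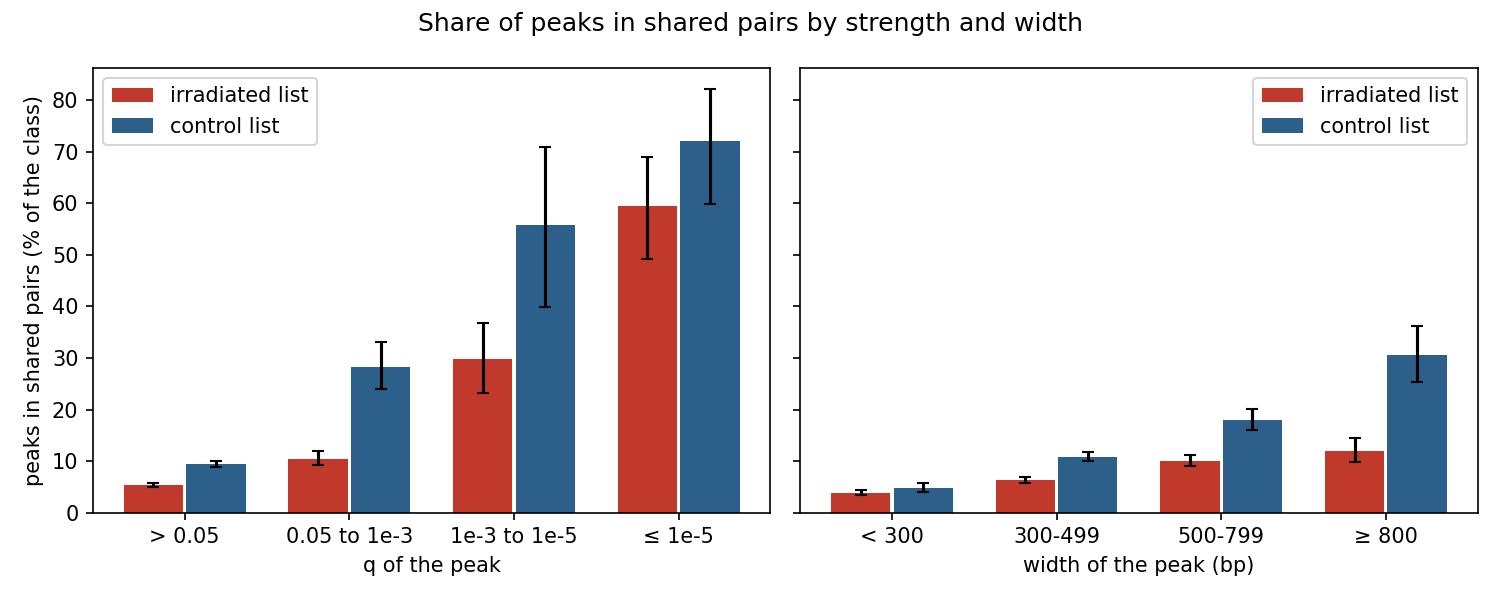
Share of peaks in shared pairs (%, y axis) by the q of the peak (left) and its width in bp (right), with irradiated bars left of control bars and exact 95% intervals. The share reached 59.4% of irradiated and 72.1% of control peaks in the strongest q class, and 12% and 30.6% of irradiated and control peaks in the widest class.

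Most pairs were nonetheless weak in at least 1 list. A q of at most 0.05 was reached by 320 irradiated peaks in pairs (31.0%) and 186 control peaks in pairs (18%), against 12.1% of irradiated and 3.29% of control peaks without overlap. Both peaks of a pair reached it in 113 pairs (11%), the irradiated peak alone in 207 (20.1%), the control peak alone in 73 (7.08%) and neither in 638 (61.9%). The summits held a median of 12 reads in the irradiated peaks (range 8 to 115) and 11 in the control peaks (range 7 to 175). Peaks without overlap had medians of 11 and 9 reads in the irradiated and control lists.

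The fold enrichment of a paired peak was higher in the irradiated than in the control list in 715 of 1031 pairs (69.4%). The authors' fold had a median of 4.10 in irradiated peaks (quartiles 3.51 and 4.74) and 3.52 in control peaks (quartiles 3.11 and 4.08), and the ratio within a pair had a median of 1.13 (quartiles 0.950 and 1.34). The irradiated fold was at least 1.5 times the control fold in 147 pairs (14.3%), where 15.2% of all 1996 overlapping pairs passed that ratio, and the control fold was at least 1.5 times the irradiated fold in 20 pairs (1.94%), where 1.95% of all overlapping pairs did. The shares in the pairs were therefore near those of overlapping peaks in general. In the 965 pairs short of the rule the median ratio was 1.14. The lists were scaled separately, 1 read counting as 0.554 scaled reads in the irradiated and 0.620 in the control list, and peaks without overlap also had a higher median fold in the irradiated list, 3.56 against 3.37 in the control list. The Spearman correlation of the folds across the 1031 pairs was 0.287.

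The local background entered this ratio. In the model used to recover reads, the fold is the scaled number of reads plus 1 over the background plus 1. The lowest background was set at 0.704 scaled reads in the irradiated and 0.918 in the control list. The recovery admitted no value below it, so this floor is not an observation. A background of at least 1.5 times that lowest value stood under 20.5% of irradiated and 28.4% of control peaks in pairs, against 27.1% and 10.5% of irradiated and control peaks without overlap. It was raised in at least 1 list in 338 pairs (32.8%) and in both in 166 (16.1%), and its Spearman correlation across pairs was 0.561. The median fold ratio was 1.20 in the 338 pairs with a raised background and 1.11 in the other 693, and the part of the background in the ratio was not tested further.

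**Figure D2:**
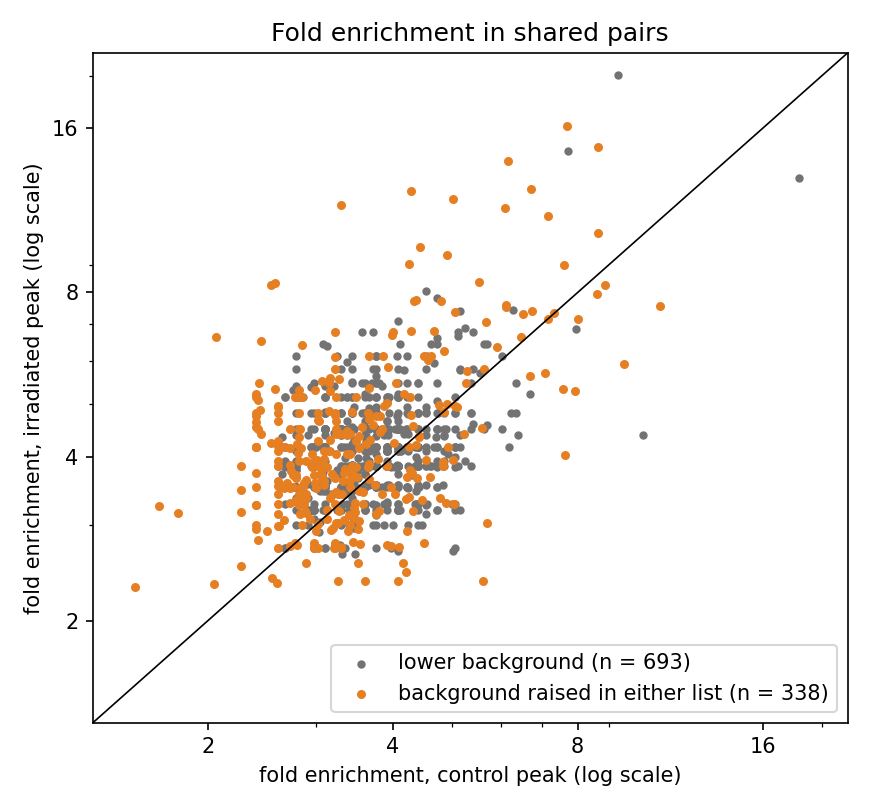
Fold enrichment of the irradiated peak (y axis) against that of the control peak (x axis, both log scales) in each of 1031 shared pairs, with the line of equal fold; orange points have a raised background in at least 1 list. The irradiated fold was higher in 715 pairs, above the line, and several of the points farthest from it are orange.

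Summits lay close together, and closest in the strongest pairs. The distance between the irradiated and the control summit had a median of 94 bp (quartiles 35.5 and 183, range 0 to 1166). It was at most 50 bp in 32.3% of pairs, at most 100 bp in 52.5% and at most 200 bp in 78.2%. In the 113 pairs with a q of at most 0.05 in both lists the median was 34 bp (quartiles 19 and 117) and 57.5% lay within 50 bp, whereas in the other 918 pairs the median was 100.5 bp and 29.2% lay within 50 bp. Many of the 113 pairs lay in a region of repeated genes on chromosome 5, and no median without them is given. In the 141 pairs with at least 15 reads at both summits the median was 36 bp, against 103 bp in the others. Overlapping pairs short of the rule had a median of 286 bp, with 7.56% within 50 bp; the rule itself brings summits together, so the distance is a description.

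**Figure D3:**
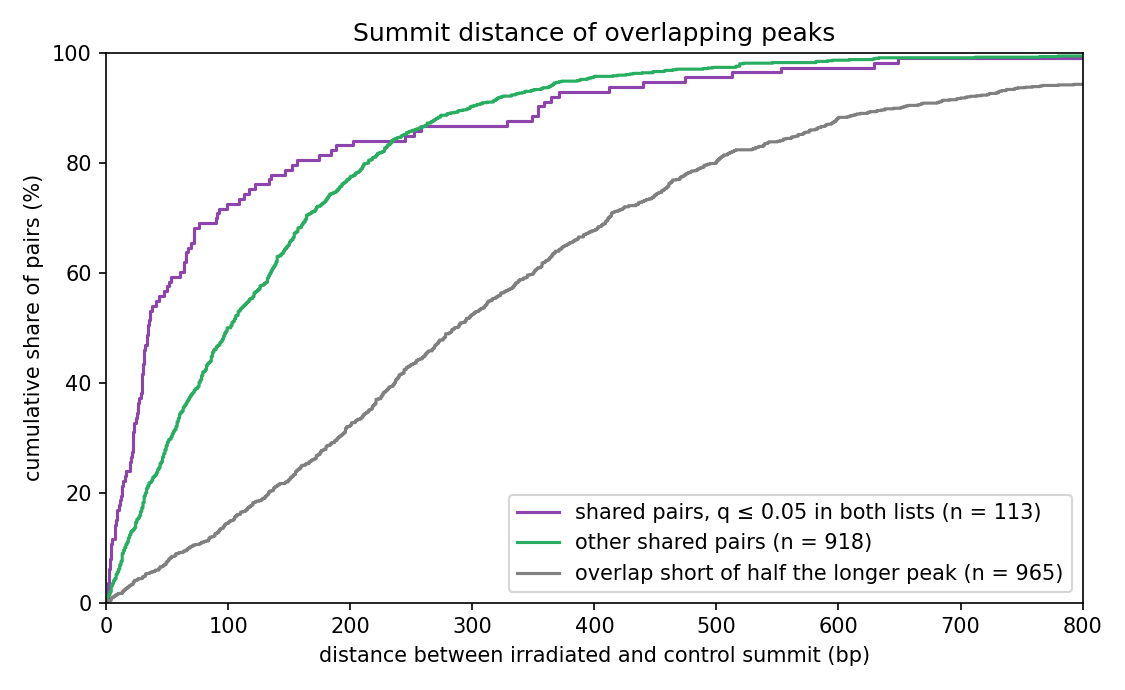
Cumulative share of pairs (%, y axis) by the distance between their irradiated and control summits (bp, x axis, shown up to 800 bp), for 113 shared pairs with q at most 0.05 in both lists, 918 other shared pairs and 965 overlapping pairs short of the rule. The curve of the 113 pairs climbs first, with a median of 34 bp, against 100.5 bp and 286 bp.

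The distance followed the width of the peaks. Its median was 60.5 bp where the longer peak was under 400 bp, 92 bp from 400 to under 600 bp, 152 bp from 600 to under 800 bp and 207 bp at 800 bp or more. As a share of the longer peak its median was 18.4%, 19.5%, 22.8% and 19.1% in these classes, from the narrowest to the widest. In the 96 pairs in which either peak had more than 1 summit the median distance was 180 bp, against 88 bp in the 935 pairs with 1 summit in each. The irradiated summit lay at the higher coordinate in 524 pairs, at the lower in 504 and at the same base in 3, with a median offset of 3 bp. Both summits lay inside the overlap in 81.3% of pairs. The values on both sides of the threshold were alike. The 137 pairs with an overlap of 50% to 55% of the longer peak had a median distance of 160 bp, and the 123 pairs just outside, at 45% to 50%, had 156 bp. The pair nearest inside covered 50% of the longer peak, and the pair nearest outside 49.9%.

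Chromosome 15 held the most pairs, 358 (34.7%), followed by chromosome 6 with 163, chromosome 5 with 101 and chromosome 11 with 91, while chromosome 14 held 2. On chromosome 15, 12.4% of irradiated and 15.6% of control peaks were in pairs. On chromosome 6 these shares were 8.22% and 13.0% of irradiated and control peaks, and on chromosome 11 they were 4.20% and 9.84%. Chromosomes 15, 6 and 11 together held 612 pairs (59.4%), against 44.7% of irradiated and 47.0% of control autosomal peaks. A pair needs a peak in both lists, so these single-list shares are not the share that peak density alone would give. That share was not computed, and the difference cannot be read as preferred sharing. Of the 113 pairs with a q of at most 0.05 in both lists, only 28 (24.8%) lay on these 3 chromosomes.

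**Figure D4:**
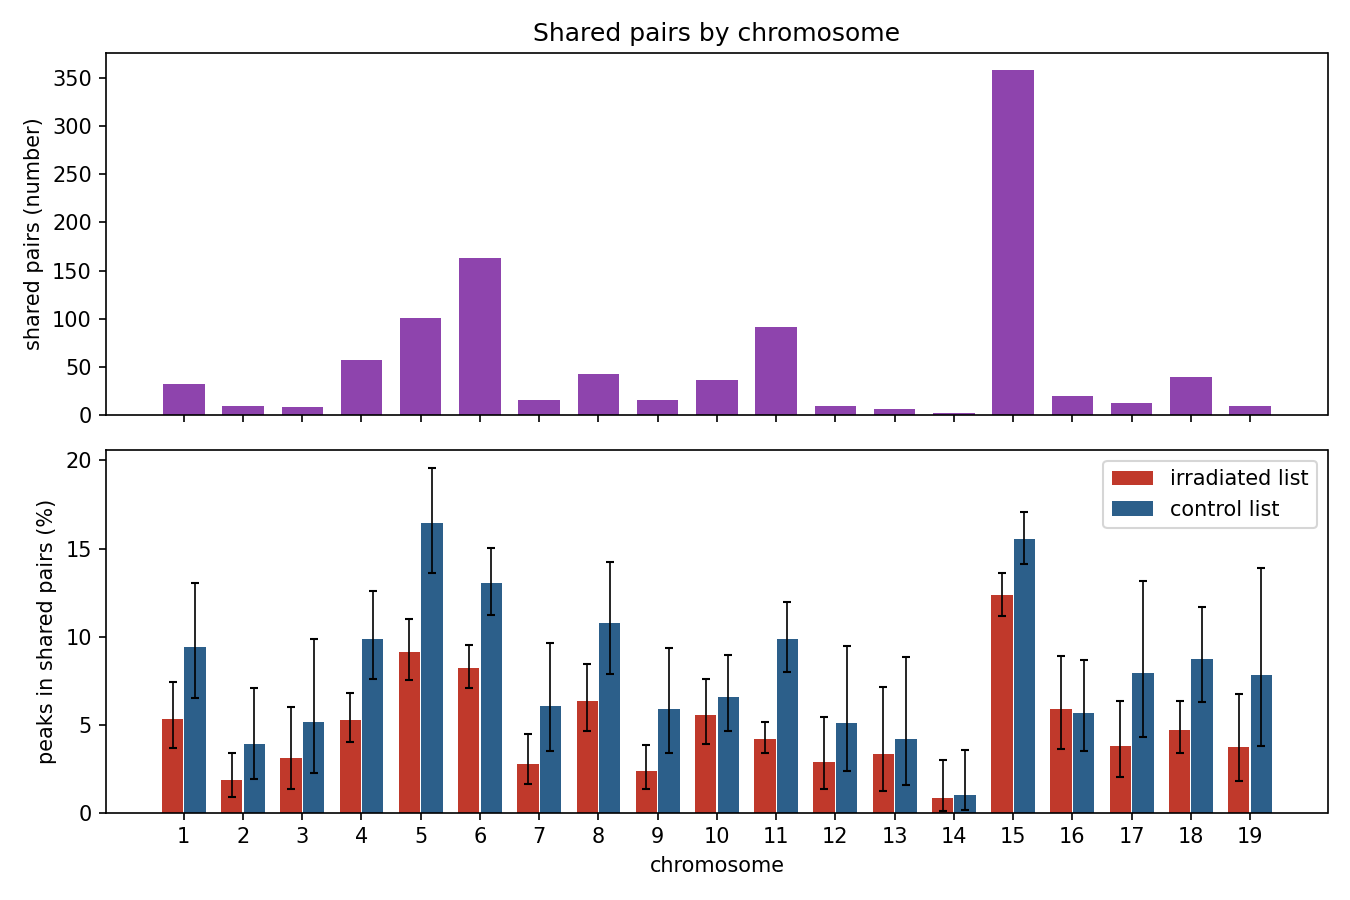
Number of shared pairs on each autosome (top) and share of the chromosome's peaks that were in pairs (%, bottom), with irradiated bars left of control bars and exact 95% intervals. Chromosome 15 held 358 pairs, and chromosomes 5 and 15 had the highest shares among control peaks, at 16.4% and 15.6%.

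A stretch of chromosome 5 from 14 to 16 Mb (mm10), chosen after its values were seen, stood apart. It is a region of repeated genes that contains the Speer4 family. It held 62 pairs (6.01%), which took 55.9% of its 111 irradiated and 61.4% of its 101 control peaks, whereas on the remainder of chromosome 5 3.93% of irradiated and 7.59% of control peaks were in pairs. It held 42 of the 113 pairs with both q at most 0.05 (37.2%). Its pairs had a median fold of 6.64 in the irradiated and 4.96 in the control list, with a median ratio of 1.24.

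Pairs were clustered, though less densely than the peaks they were drawn from. A pair lay a median of 26359 bp from its nearest neighbouring pair, and 382 pairs (37.1%) had one within 10 kb. Of all autosomal peaks, which are far more numerous, 66.7% of irradiated and 48.6% of control peaks had another peak of their own list within 10 kb. Of 467 bins of 5 Mb with a peak in either list, 191 held a pair, and 18 bins held 50% of all pairs. The fullest bins were chromosome 6 from 125 to 130 Mb with 59 pairs, chromosome 15 from 55 to 60 Mb with 51 and chromosome 5 from 15 to 20 Mb with 51. Joining pairs less than 10 kb apart gave 786 runs. Of these, 649 were single pairs, 89 had 2 pairs and 48 had 3 or more, and the last held 204 pairs (19.8%).

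The run with the most pairs, 10, covered 41015 bp of chromosome 5 (15673241 to 15714255). Speer4c lay at its upper end, and only the pairs from 15710591 and from 15713771 met that gene or its 2 kb flanks. The run contained 14 irradiated and 13 control peaks. The irradiated fold was higher in 9 of its 10 pairs, the median fold ratio was 1.48, and the median summit distance was 21.5 bp. The median background was 1.81 in its irradiated and 2.64 in its control peaks, above the lowest value of each list.

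The run at Trpm8 held 9 pairs in 22201 bp of chromosome 1 (88287990 to 88310190), most of it upstream of the gene, out of 14 irradiated and 12 control peaks. The irradiated fold was higher in 8 of the 9 pairs, with a median ratio of 1.28 and a median background of 2 in irradiated and 2.53 in control peaks. The run at C1qtnf3, which encodes a secreted protein of the complement C1q and tumour necrosis factor family, held 9 pairs on chromosome 15 (10914892 to 10956723), with 18 irradiated and 20 control peaks, a median ratio of 1.18 and a median summit distance of 189 bp. The other runs among the 6 fullest were all on chromosome 5. They met the predicted genes Gm17019, Gm10354 and Gm21149 and held 9, 8 and 8 pairs, in that order. Not all of these pairs lay at the genes. In the Gm17019 run a pair lay 18621 bp from that gene, and in the Gm10354 run a pair lay 11619 bp from that gene. Median summit distances in the runs were 46, 19 and 75 bp.

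**Figure D5:**
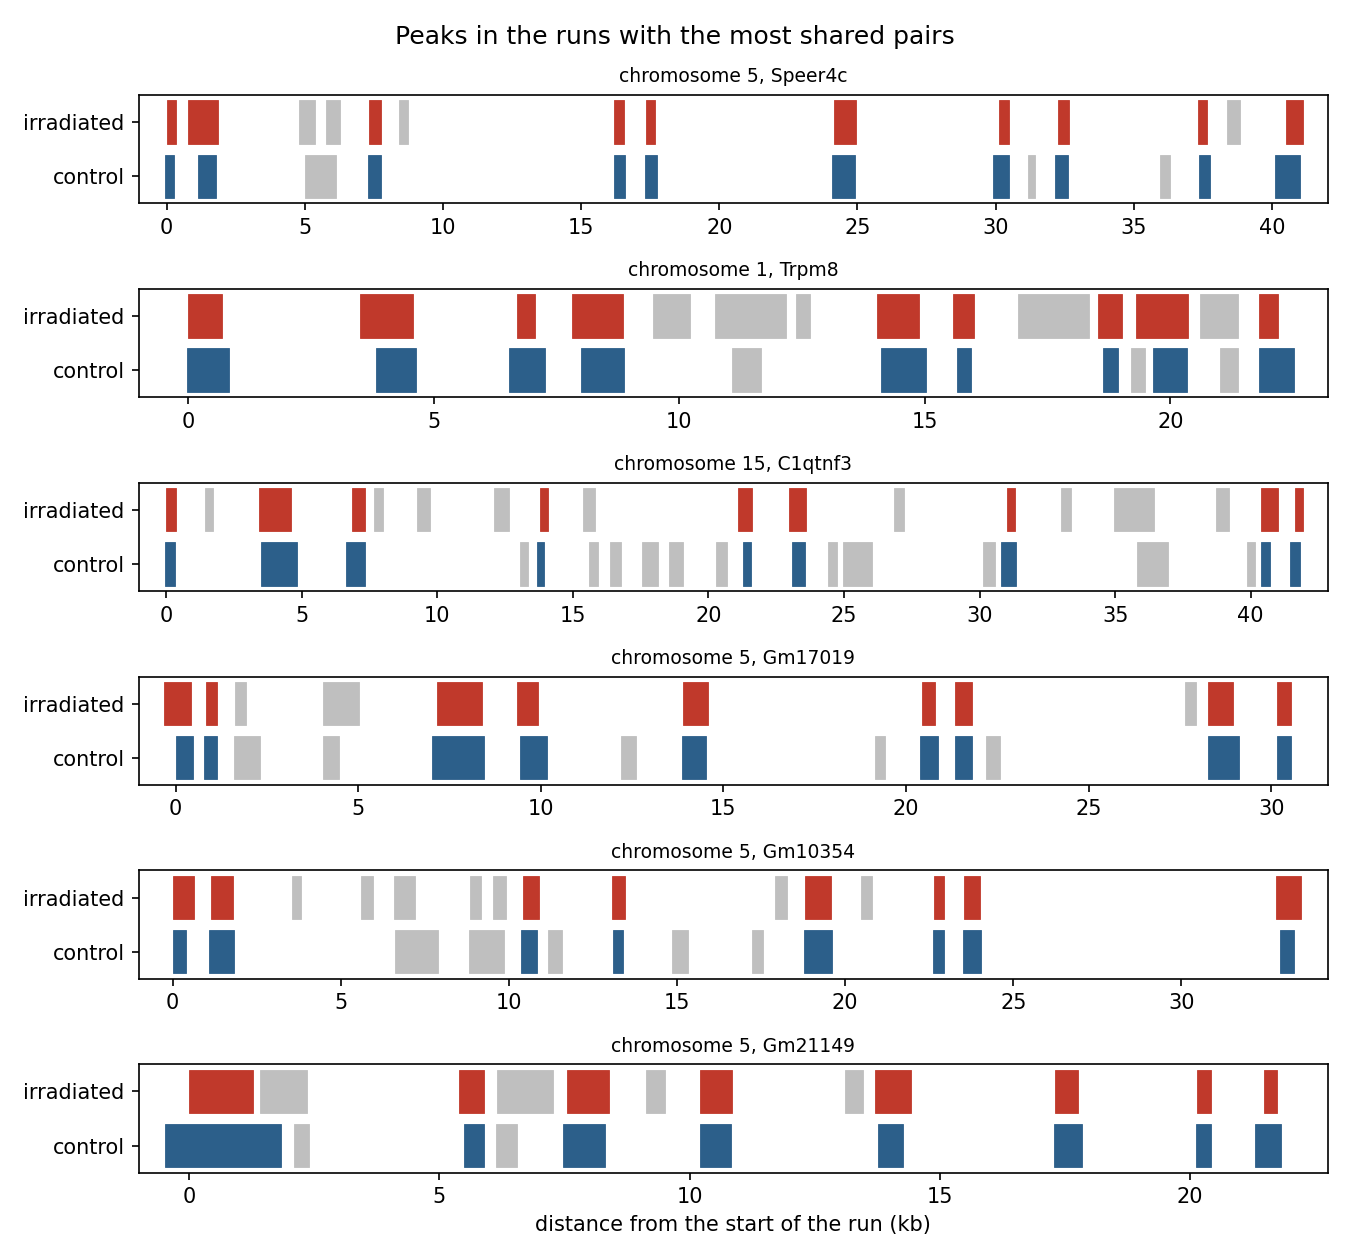
Peaks of the 6 runs with the most shared pairs, by distance from the start of the run (kb, x axis), with irradiated peaks above control peaks; red and blue blocks are in pairs and grey blocks are not. The Speer4c run held 10 pairs among 14 irradiated and 13 control peaks, and in the C1qtnf3 run more grey blocks stand between the pairs, with 18 irradiated and 20 control peaks for 9 pairs.

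Protein-coding genes were met by 343 pairs (33.3%), inside the gene or within 2 kb of it, against 38.7% of all irradiated and 32.8% of all control autosomal peaks. The overlap lay inside a coding gene in 310 pairs. It met only noncoding genes in 157 pairs, 130 of them long noncoding RNA genes, and lay outside every annotated gene in 564 (54.7%), against 51.2% and 56.4% of all irradiated and control peaks. A gene start was rare in the pairs and in both full lists. A coding start lay inside the overlap in 9 pairs (0.873%) and within 2 kb in 35 (3.39%). Within 2 kb the share was lower in the full lists, at 2.53% of all irradiated and 1.99% of all control peaks. Starts were known for 16457 of 20665 coding genes, so the counts at starts can miss some. The pair at 66670672 to 66670960 of chromosome 15 crossed the lower annotated end of Tg, but no Tg window was among the 18 promoter windows met. In all, 216 of the 20665 coding genes (1.05%) had a pair, 140 of them a single pair and 30 of them 3 or more.

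The genes with the most pairs were large genes of chromosomes 15 and 6 with many peaks in each list. Tg, which encodes thyroglobulin, the precursor of thyroid hormone (chromosome 15, 66670754 to 66850721), had 12 pairs out of 52 irradiated and 47 control peaks. The irradiated fold was higher in 8 of the 12, the ratios ran from 0.613 to 1.98, and summits lay 15 to 419 bp apart. Fer1l6, which encodes a membrane protein of the ferlin family (58510048 to 58665087 on the same chromosome), had 10 pairs out of 42 irradiated and 22 control peaks, with the irradiated fold higher in 9 and ratios of 0.936 to 1.39. Within Fer1l6, 6 of the pairs formed a run of 15198 bp with a median summit distance of 46 bp.

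Egflam, Col22a1 and Ano2 had 9 pairs each. Egflam encodes pikachurin, a matrix protein of the photoreceptor synapse, and its irradiated fold was higher in 4 of 9 pairs. Its strongest pair (chromosome 15, 7390345 to 7390998) had a fold of 6.44 in the irradiated list (q 1.73e-04, 18 reads) and 5.69 in the control list (q 0.00198, 16 reads). Col22a1 encodes a collagen of tissue junctions, and the irradiated fold was higher in 8 of 9 pairs, with ratios of 0.987 to 1.42. Ano2 encodes a calcium-activated chloride channel of olfactory neurons, and its 9 pairs were drawn from 68 irradiated and 35 control peaks, with the irradiated fold higher in 6. Fbxl7, for an F-box subunit of a ubiquitin ligase, had 8 pairs, and Rerg, for a small Ras-like GTPase, had 5. At 1 pair in Rerg the irradiated and control summits fell on the same base.

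Sfi1, which encodes a centrin-binding protein of the centrosome, had 4 pairs out of 7 irradiated and 8 control peaks on chromosome 11. It contained the widest overlap at a named gene, 1410 bp (3184260 to 3185669), with 93 reads over a background of 13.1 in the irradiated list and 94 reads over 17.6 in the control list, and folds of 3.71 and 3.18 for irradiated and control cells. The ratio at its 4 pairs ran from 0.674 to 3.21, with backgrounds of 1.81 to 13.1 in irradiated and 2.16 to 17.6 in control peaks, all above the lowest of their lists. The other wide overlaps lay at Dyrk4, for a dual-specificity kinase (965 bp), Npr3, for the clearance receptor of natriuretic peptides (963 bp), Dnah5, for an axonemal dynein heavy chain of motile cilia (897 bp), Cacng2, for an auxiliary subunit of AMPA receptors (896 bp), Tg (869 bp at each of 2 pairs) and Vwa3a, for a protein with a von Willebrand factor A domain (847 bp). In the widest pairs summits could part: they lay 877 bp apart in Cacng2, 876 bp apart in the widest pair of Dnah5 and 595 bp apart in that of Dyrk4, but 58 bp apart in that of Npr3. Dyrk4 had 4 pairs and a higher irradiated fold in 1 of them, and its lowest ratio was 0.534, at folds of 2.68 in irradiated and 5.02 in control cells. Pdzd2, for a protein with PDZ domains, had 4 pairs and a higher irradiated fold in 2.

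At genes without predicted names, 15 pairs had a q of at most 0.05 in both lists. The largest ratio among them was 2.19 at the Speer4c start, with a fold of 9.69 in irradiated and 4.43 in control cells. There the reads were nearly equal, 28 in irradiated and 27 in control cells, and the background was 0.704 and 3 for irradiated and control cells. The pair at the Trpm8 start (88306628 to 88306920) had a fold of 7.73 in irradiated cells (q 1.24e-08, 28 reads over a background of 1.13) and 4.36 in control cells (q 0.00927, 20 reads over 2.07), a ratio of 1.77. The other Trpm8 pairs had folds of 4.94 and 6.44 in irradiated cells, against 3.87 and 5.63 in control cells. In Dmbt1, which encodes a secreted scavenger receptor protein, the fold was 7.81 in irradiated cells with 26 reads and 4.72 in control cells with 13 reads, over backgrounds of 0.972 and 0.918 for irradiated and control cells. The higher irradiated fold thus came with more reads in Dmbt1, with a lower background at Speer4c and with both at Trpm8. Speer4d, a relative of Speer4c, and Fer1l6 followed with ratios of 1.40 and 1.28.

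At the other end, the lowest ratio among these 15 pairs was 0.674, in Sfi1, at 3.29 in irradiated and 4.88 in control cells over backgrounds of 6.37 and 10 for irradiated and control cells. Folds were nearly equal in Sos2, for a Ras guanine nucleotide exchange factor, at 4.93 in irradiated and 5.08 in control cells. In Olfr1396, an olfactory receptor gene, they were 5.14 in irradiated and 5.05 in control cells, with 14 reads in each. In Sp110, for a nuclear body protein of immune cells, they were 5.70 in irradiated and 5.55 in control cells. In Lifr, for the receptor of leukaemia inhibitory factor, they were 5.45 in irradiated and 5.25 in control cells, with 16 and 23 reads for irradiated and control cells. The zinc finger genes Zfp978 and Zfp982 of chromosome 4 had pairs with folds of 5.75 and 5.76 in irradiated cells, against 5.28 and 5.15 in control cells. This Zfp978 pair also met Zfp988. At Zfp600 on the same chromosome the fold was 4.38 in irradiated cells (q 0.0536, 14 reads) and 10.2 in control cells (q 1.74e-13, 30 reads), over backgrounds of 1 and 0.918 for irradiated and control cells.

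Outside coding genes with given names some pairs were stronger still, several of them on a high background. Ranked by the larger q of the 2 lists, the first pair lay in E030030I06Rik on chromosome 10 (22142425 to 22142871), where summits were 2 bp apart. It had 109 reads over a background of 4 and a fold of 12.3 in irradiated cells, and 164 reads over 23 and a fold of 4.28 in control cells. On chromosome 10 near the start of the assembled sequence (3109862 to 3110455) the fold was 13.0 in irradiated and 18.3 in control cells, over backgrounds of 1 and 1.05 for irradiated and control cells. The widest overlap of all, 1721 bp on chromosome 9 (124256318 to 124258038), had folds of 4.98 and 4.75 in irradiated and control cells over backgrounds of 12 and 15, and its summits were 897 bp apart. In Snhg14, a long noncoding RNA gene of the imprinted Prader-Willi region of chromosome 7, the fold was 13.9 in irradiated and 6.16 in control cells, with backgrounds of 1.97 and 5 for irradiated and control cells. Of the 20 pairs with the lowest larger q, 10 lay on chromosome 5 between 14 and 16 Mb.

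Developmental regulators, the best known Polycomb targets, had hardly any pairs, as had coding genes in general. Of 246 genes on a list of homeobox and other developmental transcription factors, 18 had an irradiated peak, 8 a control peak and 2 a pair (0.813%, interval 0.0986% to 2.91%, against 1.05% of all coding genes). Of these 2 only Hoxc4, a homeobox gene of the HoxC cluster, is a transcription factor gene, since Tbxas1, for thromboxane synthase, matched the list by its letters alone. The Hoxc4 pair (chromosome 15, 103019894 to 103020593) had a fold of 3.68 in irradiated cells (q 0.149) and 4.59 in control cells (q 0.00579), with summits 42 bp apart. Of 63 Wnt, Bmp, Fgf and Hedgehog ligand genes, only Fgf23, for a hormone of phosphate balance, had a pair.

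No pair was found at 28 genes of Polycomb subunits and H3K27 demethylases, at 30 DNA damage response genes and p53 targets, at 29 glioma oncogenes and tumour suppressors, at 23 glial and neural progenitor markers or at 18 genes reported to carry H3K27me3 imprinting. These 5 lists had few peaks in either list, from 0 to 3 genes each. The peak lists do not measure expression, so the glial identity of the line was not checked with these markers. The 110 cadherin and protocadherin genes had no pair, and 13 of them had an irradiated and 27 a control peak. The 39 Slco and Slc22 transporter genes had none, and 8 of them had an irradiated and 3 a control peak. The exact intervals of the shares of all lists in this paragraph include the 1.05% of all coding genes. The lack of pairs therefore does not set these genes apart from coding genes in general.

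Ion channel genes with a pair were 4 of 185, or 2.16% against 1.05% of all coding genes (Trpm8, Ano2, Cacng2 and the proton-gated channel gene Asic2). Neurotransmitter receptor genes with a pair were 4 of 111 (3.60%), all for channels gated by glutamate or GABA (Gria1, Grin2a, Grin2b and Gabrr1). Grin2b, for an NMDA receptor subunit, had 3 pairs out of 35 irradiated and 41 control peaks, with ratios of 1.22 to 1.32. Grin2a and Grin2b were also the 2 of 25 neuron markers (8%) with a pair. Synaptic adhesion genes with a pair were 2 of 60 (3.33%), Tenm2, for a teneurin, and Ctnnd2, for a delta-catenin. Among 25 leukocyte markers only Dock2 (4%), for an activator of Rac in leukocytes, had pairs, 4 out of 47 irradiated and 26 control peaks, and the irradiated fold was higher in all 4, at ratios of 1.00 to 1.43. The exact intervals of the shares of these 5 lists all include the 1.05% of all coding genes.

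Pairs at immune and barrier families were few in number. Of 162 genes on a list of interleukins, chemokines and their receptors, 4 had a pair (2.47%, against 1.05% of all coding genes). They were Lifr, Il2rb (the beta chain of the interleukin 2 receptor), Il12b (a subunit of interleukin 12) and Il5 (a cytokine of eosinophils). The list was matched by the first letters of names, which included Ifn, Lif and Osm. Lifr is thus on it without being an interleukin or chemokine receptor gene. The apolipoprotein L family had 3 of 12 members with a pair (25%, interval 5.49% to 57.2%, against 1.05%), Apol7b, Apol10a and Apol7c, which lie close together on chromosome 15. The fold was 2.99 in irradiated and 2.61 in control cells at Apol7b, 3.51 in irradiated and 2.67 in control cells at Apol10a, and 4.49 in irradiated and 2.82 in control cells at Apol7c, and none had a q of at most 0.05 in either list. The keratin gene Krt77, 1 of 109 (0.917%), had a fold of 6.11 in irradiated cells (q 1.73e-04) and 3.24 in control cells (q 0.648). The C-type lectin and NK receptor list had Klrb1c alone out of 70 (1.43%), the collagens Col22a1 alone out of 42 (2.38%), and the serpin, Wfdc and Spink inhibitors Spink13 alone out of 93 (1.08%). The exact intervals of the shares in the other lists of this paragraph include 1.05%. That of the apolipoprotein L family does not, but it treats genes as separate draws. Its 3 genes lie close together on the chromosome with the most pairs, so the interval cannot serve as a test of this list.

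In large gene families pairs were as rare. Olfactory receptor genes had 5 of 1101 with a pair (0.454%), vomeronasal receptor genes 1 of 352 (Vmn2r114, 0.284%) and Zfp and related zinc finger genes 4 of 420 (0.952%), beside 1.05% of all coding genes. The exact intervals of these shares, up to 1.06%, 1.57% and 2.42%, all include that value. The pair at Zfp988 was also a pair of Zfp978, so the same region entered the zinc finger count under both names. The list of Speer and other testis families had 2 of 59 with a pair (3.39%), Speer4c and Speer4d; most of the repeated genes in the chromosome 5 stretch have predicted names that this list did not hold.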

How the data were processed

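H3K27me3 ChIP-seq was done in 2 libraries of GL261 cells, irradiated and control, with an input library for each. IR in the labels was taken to mean irradiated, as the series title speaks of radiation. Fixation was with 1% formaldehyde, sonication to 300 to 500 bp and sequencing in paired reads of 150 bp, per the labels' protocols. BWA, deepTools and mm10 are listed without versions, per the submitters' processing notes. Not given in the sources used here were the peak caller and its settings, the handling of duplicates and the role of the inputs. The authors deposited 1 peak list for each library, not pooled, of 16091 irradiated and 9866 control peaks. The deposited start, end and summit are positions in bp. The deposited score equals 10 times the −log10 p, rounded down. A deposited ratio gives fold enrichment over background at the summit. The authors' −log10 p is unadjusted, and their −log10 q is adjusted over the genome. No p was above 0.00499 in the irradiated or 0.00495 in the control list. Fold, p and q were taken as the authors' own values of each peak. Fold ratios within pairs, and reads and background at summits, were derived from these values.

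Further summit lines of 1 interval, 679 in the irradiated and 215 in the control list, were merged with it, keeping the line of lowest p. Pairs, runs and genes were computed with Python 3.11.15, numpy 2.4.6, pandas 2.3.3 and scipy 1.17.1, and alignments with biopython 1.88. Whole reads at a summit and its background were recovered from fold and p by a Poisson model within a tolerance of 0.01, with a solution for 100% of peaks and more than 1 for 0.957% of irradiated and 0.122% of control peaks; the caller that this model belongs to is not named in the labels. Depth is given as reads at summits, since library totals are unknown. Lists were also simulated with the same model from the recovered values. On these, reads and background came back right for 99.99% of 14549 irradiated and 100% of 8843 control peaks. The simulation checks the arithmetic of the recovery and cannot show whether the authors' caller used this model. Genes and promoter windows came from RefSeq tables of GRCm38.p6, the assembly of mm10; no genome was used, so exons, introns and sequences outside promoter windows were not examined.

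The pairs and the 24 gene lists were chosen with earlier results of these data known, and no list was tested. Named genes, without predicted names, were the 12 with the most pairs, the 12 whose best pair had the lowest larger q of the 2 lists, those of the 8 widest overlaps, those of the 5 largest and 5 smallest fold ratios among pairs with both q at most 0.05, up to 4 of each gene list and the genes of the 6 runs with the most pairs. Regions outside this rule were chosen after their values were seen, among them the 20 strongest pairs. Alternatives changed the overlap, the threshold on peaks, the chromosomes, the gene window and the gap between pairs. Shares have exact (Clopper-Pearson) 95% intervals that cover counting error only.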

Additional observations from a re-analysis of the deposited data

Results flagged for a closer look

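Sequences outside the 19 autosomes also held peaks that met the same overlap rule. These peaks were in the same irradiated and control lists, but the comparisons above did not use them. On the X chromosome there were 138 pairs, which took 49.5% of its irradiated and 49.3% of its control peaks, and 96 of them lay between 30 and 35 Mb. Summits of the 138 pairs were a median of 23 bp apart, the median fold was 6.11 in irradiated and 4.80 in control cells, and 97 had a q of at most 0.05 in both lists. No values without the 96 pairs are given, so these cannot be read as a trait of the whole X chromosome. On unplaced scaffolds there were 18 pairs, which took 27.3% of irradiated and 32.1% of control peaks. These numbers were not set against the input libraries, which were not analysed here, and no library has a replicate.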

How the results depend on the processing

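With 1 library for each condition, all values are counts and medians of 2 lists, and no result has a replicate check. No paired analysis was possible because each condition had 1 library and no replicate number. The number of pairs, 1031 as reported, was 1996 at an overlap of 1 bp, 1585 at 50% of the shorter peak, 500 at 70% of the longer, 113 with q at most 0.05 in both lists, 162 where both had a −log10 p of 5 or more, and 419 without chromosomes 15, 6 and 11. The median summit distance, 94 bp, was 171, 130, 65.5 and 132 bp at overlaps of 1 bp, 30% and 70% of the longer and 50% of the shorter peak, 34 and 44.5 bp under the q and p thresholds, 78 bp without chromosomes 15, 6 and 11, and 82 bp with the X chromosome. The median fold ratio, 1.13, stayed above 1 under every alternative run, and moved to 1.09 at 70%, 1.06 under the p threshold and 1.21 with equal numbers of peaks. The share on chromosomes 15, 6 and 11, 59.4%, was 56% at 70%, 24.8% and 37.0% under the q and p thresholds, and 52.4% with the X chromosome. The number of genes, 216, was 333 at 1 bp, 114 at 70%, 30 and 40 under the q and p thresholds and 103 without those chromosomes. The share of pairs with a neighbour within 10 kb, 37.1%, was 27.8% for 5 kb and 58.8% for 50 kb. Alternatives added after seeing the data left out chromosome 5 from 14 to 16 Mb, which gave 63.2% on chromosomes 15, 6 and 11 and 33.2% with a neighbour, or pairs with a raised background, which gave a fold ratio of 1.11 and 25.7% with a neighbour. The share on chromosomes 15, 6 and 11 under the q and p thresholds lay below the 44.7% of all irradiated and 47.0% of all control peaks, taken without a threshold, whereas the reported share lay above them. Neither single-list share is the share of pairs that peak density in both lists would give. The causes of these shifts were not tested.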
